A study of Mus musculus with 7 samples.

Results

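The cells described here are thymocytes at the double-negative 4 (DN4) stage that carried the KN6 gamma-delta T cell receptor as a transgene but lacked the ligand of that receptor (Lig-). They were measured on 3 of the 7 arrays of the study, the 3 arrays whose label names the Lig- cells. All mice were BALB/c and Rag2-/-, so neither the Lig- cells nor their controls could rearrange antigen receptor genes of their own. On each array the DN4 RNA was hybridised together with RNA of double-negative 3 (DN3) cells from Rag2-/- mice without the transgene, which stop development before a T cell receptor is made. The 4 other arrays compared KN6 transgenic Rag2-/- DN4 cells from mice with the ligand (Lig+) with the same kind of DN3 cells. All populations were sorted by flow cytometry and their RNA was amplified before labelling. The labels give no age or sex, and they do not state how the ligand was removed or how many animals made up an RNA sample. The submitters describe the arrays of a group as biological replicates, 1 of them dye-swapped so that DN4 carried Alexa 647; whether the swapped array held separate RNA is not stated. The p-values then measure the spread between these arrays.

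Thymocytes pass from DN3 to DN4 once a receptor on their surface signals. In the alpha-beta lineage that receptor is the pre-TCR, and in the gamma-delta lineage it is the gamma-delta receptor itself. KN6 binds the closely related class I molecules T10 and T22, which need beta-2 microglobulin (B2m) to reach the cell surface. In the gamma-delta lineage, strong receptor signals through the Egr factors and Id3 favour cells that make interferon-gamma. Cells that meet no ligand or a weak one more often keep the machinery for interleukin-17.

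Values are log2 ratios of DN4 over DN3, so 1 is a doubling and -1 a halving. Array values are given in the order of Lig- replicates 1, 2 and 3, where replicate 1 is the dye swap. The fitted value comes from a limma model over all 7 arrays with a term for dye. A gene rose or fell where its Benjamini-Hochberg adjusted p over the 23602 genes tested was under 0.05. In each group 1 array, replicate 1, is dye-swapped. Where either is left out, the dye term takes up the other. Both fits then give the same difference between Lig- and Lig+ cells and count as 1 check. The DN3 channel of each array was its control, so any spread between the DN3 RNAs of the arrays lies within the ratios. The labels do not state whether the DN3 RNA came from separate preparations. If all arrays shared 1 DN3 sample, the tests leave out the spread among DN3 samples.

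Of 41174 probes, 34906 passed the filter on dim probes, and each gene was represented by its brightest probe. The median DN4 signal of the 7 arrays lay between 232.7 and 595.4 intensity units, and no spot was saturated. The Lig- arrays correlated with each other across genes at r = 0.914 for replicates 1 and 2, 0.808 for 1 and 3, and 0.865 for 2 and 3. Replicate 3 was scanned on another day and stood apart in 3 measures. Its mitotic genes had a median of 1.08 (replicates 1 and 2: -0.34 and -0.17). Its interferon response genes had a median of -0.12 (replicates 1 and 2: -0.76 and -0.70). Its 4 Y-linked genes lay between -0.15 and 0.19, against -2.23 to -1.74 on the other Lig- arrays. Replicate 1, the dye swap, lay nearest to 0 for many of the strongest falls, and the dye term passed the test for 282 genes. Both dye-swapped arrays of the study were on slide 1, which held no other of its arrays. The dye term thus cannot be told apart from an effect of that slide. The part of scan day, of the sex of the mice and of dye in single results was not tested beyond the values given below.

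Probes for the T cell receptor loci and for Rag2 were read because the labels name a receptor transgene and the loss of Rag2. They did not settle whether the labels are right. Probes for the T cell receptor gamma locus did not move together. The 2 probes below, both on chromosome 13 by the array's annotation, are shown because they read the same locus and moved in opposite directions; no base is in capitals.
Tcrg A_52_P200125: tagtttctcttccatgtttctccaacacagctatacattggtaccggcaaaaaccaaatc
Tcrg A_51_P354616: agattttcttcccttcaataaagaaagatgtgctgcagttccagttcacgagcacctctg
Probe A_52_P200125 read 2.49, 2.49 and 3.19, and its fitted ratio was 2.68 ± 0.16 (SE; limma adjusted p = 9.02e-05, adjusted over all 34906 probes, as for the next probe). Probe A_51_P354616 read -1.33, -3.37 and -1.91, and its fitted ratio was -1.99 ± 0.32 (limma adjusted p = 0.00455). All 3 Lig- arrays were above DN3 for the first probe and below it for the second. A probe for the variable segment Trgv2 read 1.98, 1.83 and 2.27. A further Tcrg probe had a fitted ratio of 0.03 with a dye term of 1.57, and its arrays read 1.53, -1.79 and -1.23. Rag2 itself, the gene deleted in all mice, read -2.80, -3.40 and -3.11 (fitted -3.02 ± 0.10, limma adjusted p = 1.44e-05). Where its probe lies relative to the deleted part is not given, so it checks no label. The 3 probes for the alpha locus rose to fitted ratios of 5.71, 4.24 and 4.07.

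B2m, the light chain of class I molecules, was far lower in Lig- cells than in DN3 cells. Its brightest probe read -2.93, -5.66 and -5.74, with a fitted ratio of -4.29 ± 0.28 (limma adjusted p = 0.00012) and a dye term of 1.47. A second B2m probe read -3.61, -5.06 and -4.70. The third probe moved less, to -0.68, -0.49 and -0.53 (fitted -0.57 ± 0.13, limma adjusted p over all probes = 0.0199). In Lig+ cells the brightest probe read 2.43, 0.14, -0.59 and -1.50, so no Lig+ array reached the Lig- range. The difference between the groups was -5.14 ± 0.37 (limma adjusted p = 0.00106). On the third probe the Lig+ arrays read 0.68, 0.83, 0.20 and 0.37. Its difference was smaller, at -1.09 ± 0.17 (limma adjusted p over all probes = 0.0128). The heavy chain genes of the KN6 ligands did not pass the test: H2-T10 read -0.16, -0.43 and -0.07, and H2-T22 read -0.56, -0.19 and -0.50. Neither gene differed between Lig- and Lig+ cells by the same test, with differences of -0.08 and -0.14. Of the 22 measured genes of class I and peptide loading, 3 rose, 5 fell and 14 did not pass, with a median of -0.28. The 5 that fell were B2m, the peptide transporter chain Tap1, and the immunoproteasome subunits Psmb8, Psmb9 and Psmb10. Besides B2m these falls were small, between -0.78 for Psmb9 and -0.28 for Psmb10. B2m was the 1 gene of the 5 that fell without Lig- replicate 1, where the adjusted p of the other 4 lay between 0.12 and 0.552, and 3 genes fell without replicate 2. With the slide as a replicate block Psmb10 did not pass (limma adjusted p = 0.0621).

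**Figure D1:**
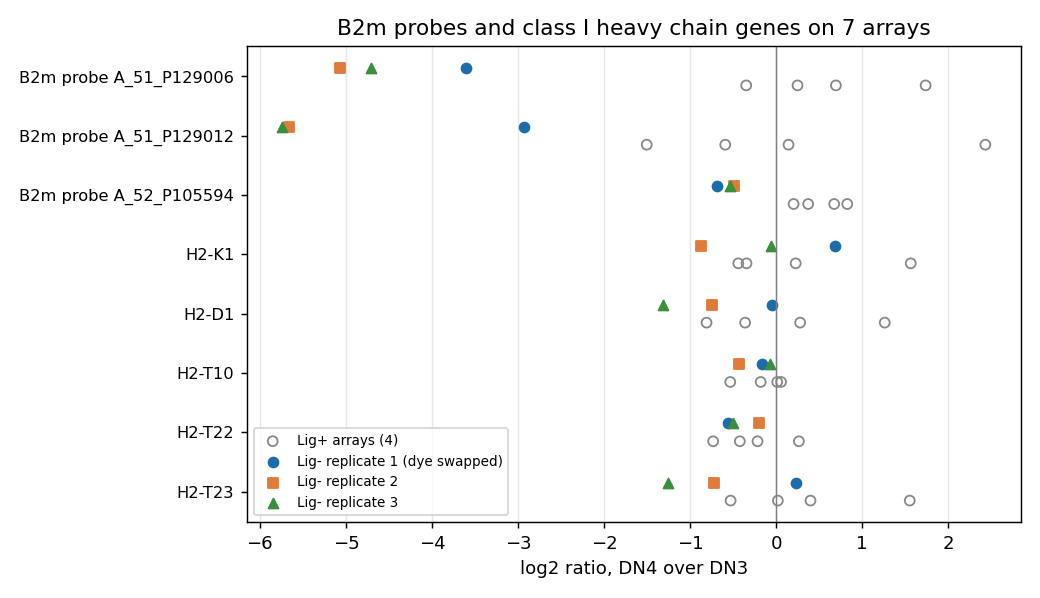
Log2 ratios of DN4 over DN3 for the 3 B2m probes and 5 class I heavy chain genes on every array; filled symbols are the 3 Lig- arrays and open circles the 4 Lig+ arrays. On 2 of the B2m probes the Lig- arrays lie between -5.74 and -2.93, apart from all Lig+ arrays. On the third probe the groups lie nearer to each other without overlap, while H2-T10 and H2-T22 overlap.

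Across all genes, 7381 differed between Lig- DN4 and DN3 cells, which is 31.3% of those tested. Of these, 3845 rose (16.3% of genes tested) and 3536 fell (15%). Counts of rises and falls by list are to be read against these shares. The change reached at least 1 on the log2 scale for 2328 genes, at least 2 for 694 and at least 4 for 84. In 7258 of the 7381 genes all Lig- arrays had the same sign. That count uses the same values as the test, and the share over all genes was not counted. Without Lig- replicate 1, the only dye swap among the Lig- arrays, 2732 genes passed, and without replicate 3 it was 5966.

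Of the genes with the largest rises, Tktl1, a transketolase-like enzyme, read 6.78, 5.79 and 6.52, with a fitted ratio of 6.44 ± 0.38 (limma adjusted p = 7.6e-05). St6gal1, which adds sialic acid to N-glycans, read 6.89, 5.05 and 6.81. Myo6, an unconventional myosin, read 6.61, 4.90 and 6.41, although the fitted ratios of its 3 probes ran from 0.54 to 6.15. On these genes replicate 2 was the lowest array and replicates 1 and 3 lay close together. Replicate 2 was also the lowest for the ETS factor Etv5 (5.92, 4.68 and 6.19) and for Tdrp (5.93, 4.78 and 5.78). Slc15a1, an oligopeptide transporter, read 6.30, 5.58 and 4.84, and Gem, a small GTPase, 6.28, 5.33 and 5.87. The DN3 channel was well above background on 2 of 3 arrays for Gem, Slc15a1 and Tdrp. Iqch read 6.22, 5.23 and 5.07, and the phosphatase gene Ppm1e 5.31, 4.92 and 4.97, the narrowest range among the 15 largest rises. Syt13, a synaptotagmin, read 5.25, 4.28 and 5.98, with fitted ratios of 0.77 and 5.17 on its 2 probes, and Gsn, the actin-severing protein gelsolin, 5.19, 4.34 and 5.55. St6gal1, Etv5, Iqch and Ppm1e each had 2 probes, and the other probe had a smaller fitted ratio, at 3.40, 3.73, 2.87 and 2.72. Cd163l1, S1pr1 and Klf2, also among the 15, are described with their groups.

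The largest falls were of DN3 stage genes and of genes of unlike kinds. Khdc1a fell furthest, with -6.88, -8.56 and -7.44 on the 3 arrays and a fitted ratio of -7.58 ± 0.62 (limma adjusted p = 0.000264). Its other probe had a fitted ratio of -4.07. Ifi202b, of the interferon-inducible p200 family, read -5.56, -7.23 and -8.12. Bst1, an ADP-ribosyl cyclase on the cell surface, read -3.90, -5.64 and -7.44. Replicate 1 was nearest to 0 on all 3 genes, and no array came close to the DN3 level. Fbp1, a gluconeogenic enzyme, read -4.63, -5.50 and -5.81, with a small error (fitted -5.16 ± 0.09, limma adjusted p = 3.77e-06). Rab38 and Scel had errors as small, with fitted ratios of -4.76 ± 0.09 and -4.74 ± 0.08. The remaining falls among the 15 were Rhoj (-4.85), Ndrg1 (-4.77), 4930519L02Rik (-4.75), Tifa (-4.66), the mitochondrial calcium uniporter subunit Mcub (-4.65) and Scin (-4.59). Rhoj was well above background in the DN4 channel on 2 of 3 Lig- arrays, and its other probe had a fitted ratio of -3.10.

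**Figure D2:**
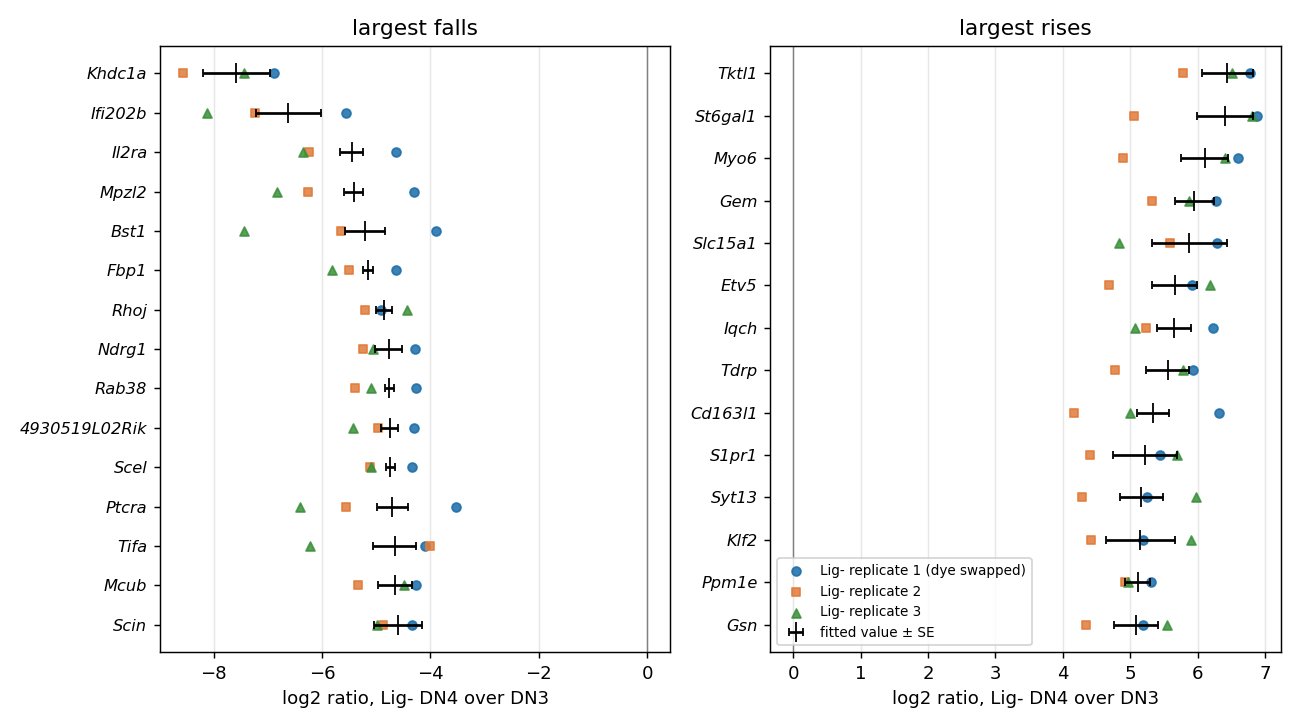
The largest falls and rises of Lig- DN4 over DN3 among genes past the test with 1 direction on all 3 arrays, as log2 ratios; symbols are the arrays and the bar is the fitted value with its SE. No array lies nearer to 0 than -3.52 (Ptcra, replicate 1) among the falls or 4.16 (Cd163l1, replicate 2) among the rises, and replicate 1 is the highest array for all falls but Rhoj and Tifa.

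Genes of the DN3 stage and of recombination fell together. Of 10 measured, 7 fell, 2 rose and 1 did not pass, with a median of -1.35 against -0.0015 over all genes. Il2ra, the interleukin-2 receptor alpha chain (CD25) that marks DN3 cells, read -4.64, -6.24 and -6.36 (fitted -5.45 ± 0.22, limma adjusted p = 2.2e-05). Ptcra, the pre-TCR alpha chain, read -3.52, -5.55 and -6.41. Rag1, which cuts receptor genes together with Rag2, read -2.99, -4.47 and -5.25, and Mpzl2, an adhesion molecule, -4.30, -6.26 and -6.83. On all 4 genes replicate 1 was nearest to 0, and their dye terms lay between 0.87 and 1.36. The 2 that rose join or open DNA ends: Lig4, DNA ligase IV (fitted 1.34 ± 0.14), and Dclre1c, Artemis (0.94 ± 0.15), whose call was lost without Lig- replicate 1 (limma adjusted p = 0.105). Lig4 stood at -1.66 in Lig+ cells, and the difference of 3.00 ± 0.18 passed (limma adjusted p = 0.000702).

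Notch signals sustain thymocytes up to the DN3 stage, and the Notch group fell as well: of 14 measured, 9 fell, 2 rose and 3 did not pass, with a median of -1.19. Nrarp, a feedback inhibitor that Notch induces, read -4.16, -4.07 and -3.31 (fitted -3.93 ± 0.20, limma adjusted p = 4.38e-05). The targets Hes1 and Dtx1 read -2.46, -2.64 and -3.35, and -2.22, -2.19 and -2.25. Notch1 read -2.34, -2.21 and -2.04, and Notch3 -1.85, -2.19 and -3.10. For each of these genes all 3 Lig- arrays were far below DN3. The Notch3 call was lost without Lig- replicate 1 (limma adjusted p = 0.11), and that left 5 of the 14 genes with a fall. In Lig+ cells Notch1 and Hes1 stood at -2.77 and -3.49, and Nrarp and Dtx1 at -0.90 and -0.07. The differences of -3.03 and -2.11 in Nrarp and Dtx1 passed the test (limma adjusted p = 0.00159 and 0.00265). Maml1, a coactivator, rose by 0.94, and Rbpj, which carries Notch to DNA, was at 0.06 and did not pass.

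Genes of early progenitors, mostly transcription factors, fell in 11 of 15 cases, while 1 rose and 3 did not pass, with a median of -1.23. Erg read -3.34, -3.83 and -3.77, and Mycn, a Myc relative of cycling progenitors, -2.92, -2.92 and -3.16. Bcl11a, an early lymphoid factor, read -2.22, -2.50 and -3.44. The 3 arrays lay close together for Erg and Mycn, and replicate 3 was the lowest for Bcl11a. Hhex (-1.25), Mef2c (-1.67), Spi1 (-1.23) and Tal1 (-1.17) also fell. The stem cell factor receptor Kit was the 1 gene that rose, by 0.66 ± 0.09, and this call was lost without Lig- replicate 1 (limma adjusted p = 0.0626).

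The response to receptor signals rose in part. Of 27 measured genes, 17 rose, 4 fell and 6 did not pass, with a median of 1.00 in Lig- cells and 2.70 in Lig+ cells. Egr1, an immediate early factor downstream of ERK, read 4.11, 4.06 and 4.27 (fitted 4.23 ± 0.26, limma adjusted p = 9.54e-05). Nr4a1 (Nur77), which is induced in proportion to receptor signals, read 3.13, 2.86 and 3.01. Cd69 and Cd5, surface proteins set by signal strength, read 2.76, 2.84 and 3.41, and 3.23, 2.84 and 3.45. The 3 arrays lay close together for all 4 genes. Dusp6, the phosphatase that ERK induces against itself, read 4.24, 3.87 and 4.17 (fitted 4.17 ± 0.12, limma adjusted p = 1.09e-05), and it stood at 3.72 in Lig+ cells. Dusp4 was likewise near in both, at 3.34 and 3.28, and these differences of 0.44 and 0.06 did not pass. Egr2 moved less than Egr1. It read 1.51, 1.48 and 1.11, whereas the 4 Lig+ arrays lay between 5.59 and 6.33. Egr3 read 0.93, 0.76 and 0.61, and it was well above background on 2 of 3 Lig- arrays in the DN4 channel and on 1 of 3 in the DN3 channel, so its ratio to DN3 is uncertain. The groups did not overlap for either gene, and the differences were -4.70 ± 0.20 and -5.89 ± 0.21 (limma adjusted p = 0.000264 and 0.000163). The Egr3 difference rests on 1 of 2 probes: on the other, the 1 well above background on every array, it was -0.43 and did not pass (limma adjusted p = 0.107). The Egr3 call against DN3 was lost without Lig- replicate 1 or 2 (limma adjusted p = 0.149 and 0.0572). Among the 4 that fell, Spry1 (-1.04) and Spry2 (-2.22, with its other probe at -0.076) are Sprouty inhibitors of ERK, and Ier3 read -2.28, -2.38 and -1.79. In the test of Lig- against Lig+ cells 13 of the 27 genes were lower in Lig- cells and 1, Spred1, was higher. Over all genes tested 4.8% were lower and 6.97% higher. The Spred1 call was lost without any 1 Lig- array or Lig+ replicate 1 or 3 (limma adjusted p up to 0.133).

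Genes of the CD3 complex and of the kinases, adaptors and inhibitors near the receptor rose more often than they fell. Of 26 measured, 15 rose, 7 fell and 4 did not pass, with a median of 0.71. Zap70, the kinase that binds the CD3 chains, read 3.10, 2.86 and 2.97 (fitted 3.01 ± 0.06, limma adjusted p = 6.96e-06). Txk, a kinase of the Tec family, read 4.18, 4.15 and 4.44. Rasgrp1, which activates Ras after receptor signals, read 3.87, 2.96 and 3.75. The coreceptor Cd6 read 2.85, 2.73 and 2.81. The other arm of this group was the CD3 chains: Cd247, the zeta chain, rose by 1.38 ± 0.11, whereas Cd3e fell by 0.66 on the log2 scale, which did not pass without Lig- replicate 1 (limma adjusted p = 0.145). Cd3g read -0.91, -3.61 and -3.83, with a fitted ratio of -2.35 ± 0.15 and a dye term of 1.31. Cd3d, another CD3 chain, and the kinase gene Lck read 0.33, -1.79 and -2.36, and 0.50, -1.38 and -1.27, and did not pass, although Cd3d passed with the slide as a replicate block (-0.99, limma adjusted p = 0.0448). For these 3 genes the dye-swapped array stood well above the others, whereas the 3 arrays of Zap70 lay close together. The 7 falls of this group became 3 without Lig- replicate 1.

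Genes of the gamma-delta lineage and the interleukin-17 programme rose in 13 of 17 measured genes, 1 fell and 3 did not pass, with a median of 3.21. Cd163l1, the scavenger receptor SCART1 of gamma-delta cells, read 6.31, 4.16 and 4.99. It was also high in Lig+ cells (3.86), and the difference of 1.48 ± 0.30 passed (limma adjusted p = 0.0279) but was lost when replicate 1 or 3 of Lig-, or 1 or 3 of Lig+, was left out (limma adjusted p up to 0.111). Sox13, an early factor of the lineage, read 4.12, 3.07 and 3.63, against 0.39 in Lig+ cells. Maf, a bZIP factor, read 3.95, 3.42 and 3.05, against 1.01. Sox13 and Maf were higher in Lig- cells in the direct test, by 3.37 ± 0.41 and 2.57 ± 0.14 (limma adjusted p = 0.00481 and 0.000624). Blk, a Src family kinase, read 4.62, 3.47 and 4.00, and Rora read 4.93, 4.13 and 4.77. Their differences from Lig+ cells, 2.73 and 2.06, did not pass (limma adjusted p = 0.0587 and 0.103), but passed with the slide as a replicate block, at 2.86 and 2.41 (limma adjusted p = 0.0164 and 0.00988). The 3 Rora probes had fitted ratios over DN3 from 1.97 to 4.61. Batf, which encodes an AP-1 factor, and the cytokine receptors Il1r1 and Il18r1 rose by 3.21, 3.73 and 2.40. In Lig+ cells these genes rose by 2.76, 3.13 and 2.76. The Batf difference of 0.45 passed (limma adjusted p = 0.0486) but was lost when any 1 array was left out (limma adjusted p up to 0.122). Those of Il1r1 and Il18r1, 0.60 and -0.37, did not pass. The chemokine receptor Ccr6 read 1.90, 1.65 and 2.79, against 0.09 in Lig+ cells, and that difference of 1.98 did not pass without Lig- or Lig+ replicate 1 (limma adjusted p up to 0.051). The cytokine gene Il17f was at 0.09 and did not pass, and Il22 was well above background in the DN4 channel on 1 of 3 Lig- arrays. The fall was of Syk, a kinase, at -1.15 and -1.35 on replicates 1 and 2 with no value on replicate 3, and this call was lost without any 1 Lig- array. Il17re, a receptor chain for interleukin-17C outside this list, read 3.52, 3.09 and 3.06, against -1.30 in Lig+ cells. In all, 7 of the 17 genes were higher in Lig- than in Lig+ cells and none was lower, against 6.97% and 4.8% of all genes tested.

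The type 1 and cytotoxic group was mixed in Lig- cells. Of 25 measured, 7 rose, 5 fell and 13 did not pass, with a median of -0.25. In Lig+ cells 19 rose and 2 fell, with a median of 1.97. Of all 23602 genes tested, 4108 rose and 4467 fell in Lig+ cells. Gzma, granzyme A, read 5.49, 3.15 and 4.72 (fitted 4.58 ± 0.36, limma adjusted p = 0.000232) and was above Lig+ cells by 2.60 ± 0.47 (limma adjusted p = 0.0185). Il12rb1 read 3.78, 3.34 and 3.76, and Ccl4, a chemokine, 2.69, 2.80 and 2.00. These 3 are the genes of the group that were higher in Lig- cells. The difference in Gzma did not pass when replicate 1 or 3 of Lig-, or 1 of Lig+, was left out, nor that in Ccl4 when replicate 1 or 2 of Lig-, or 1 or 3 of Lig+, was left out (limma adjusted p up to 0.0902 and 0.0997). Il2rb, the receptor chain for interleukins 2 and 15, rose to 2.15, below the 3.84 of Lig+ cells, a difference that did not pass when replicate 1 or 2 of Lig-, or 1, 3 or 4 of Lig+, was left out (limma adjusted p up to 0.158). The regulators Tbx21 (T-bet) and Eomes read -0.11, -0.33 and -0.05, and -0.23, -0.22 and -0.09, and Ifng -0.25, -0.02 and -0.52. None of the 3 passed against DN3, and all 3 were lower than in Lig+ cells, by -1.09, -3.09 and -1.31, though for Ifng not when replicate 1 or 3 of Lig-, or 1 of Lig+, was left out (limma adjusted p up to 0.0595). Eomes was well above background in 2 of 3 Lig- arrays in either channel. Of the 5 falls in this group, 4 or 5 were lost when any 1 Lig- array was left out. In all, 16 of the 25 genes were lower in Lig- than in Lig+ cells. Over all genes tested 4.8% were lower and 6.97% higher.

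**Figure D3:**
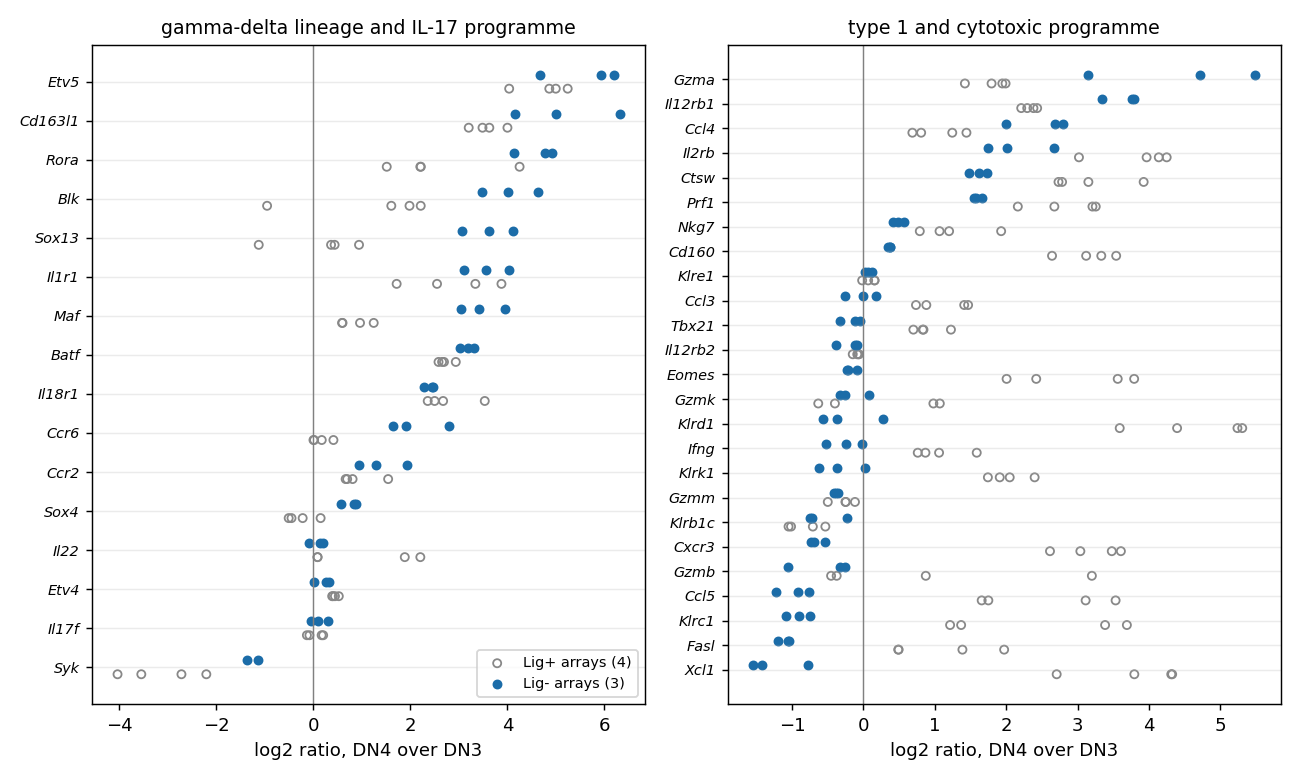
Log2 ratios of DN4 over DN3 for measured genes of the gamma-delta and interleukin-17 list and of the type 1 and cytotoxic list, with filled points for the 3 Lig- arrays and open circles for the 4 Lig+ arrays. Sox13, Maf and Ccr6 are apart with Lig- higher, and Klrd1, Xcl1, Cxcr3 and Eomes are apart with Lig- lower.

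Among T lineage transcription factors 15 of 25 rose, 5 fell and 5 did not pass, with a median of 0.61. Id3, which blocks E proteins, read 4.12, 3.18 and 3.73 (fitted 3.80 ± 0.27, limma adjusted p = 0.000161), close to the 4.11 of Lig+ cells. Its relative Id2 went the other way, at -1.84, -2.05 and -2.09, and stood at 1.74 in Lig+ cells. The difference in Id2 was -3.72 ± 0.18 (limma adjusted p = 0.000405), and the difference of -0.31 in Id3 did not pass. Gata3 read 3.70, 3.25 and 3.14, against 0.74 in Lig+ cells, and the difference was 2.69 ± 0.24 (limma adjusted p = 0.00174). Foxo1 read 2.74, 2.70 and 2.61, Tox 2.65, 2.76 and 2.84, and Tcf7 2.51, 1.39 and 1.67. Ikzf2 (Helios) rose to 2.75 and Runx3 to 2.03, while Runx1 fell by 1.36 and Zeb2 by 3.20 on the log2 scale. Myb, a progenitor factor, was at 0.03 in Lig- cells and at -2.77 in Lig+ cells, a difference of 2.80 ± 0.11 (limma adjusted p = 0.000163). Of the 12 measured genes of innate-like T cells, 7 rose, 1 fell and 4 did not pass, with a median of 1.26. Icos, a costimulatory receptor, read 3.97, 3.14 and 3.78, and the signalling lymphocyte receptor gene Slamf1 1.73, 2.10 and 2.06, with its adaptor Sh2d1a at 1.99, 1.88 and 1.74. The 1 fall was Id2. Double-positive stage genes split, with 7 of 16 up, 6 down and 3 not past the test, and with 1 of the 6 falls left without Lig- replicate 1. Among them the homing receptor Ccr9 rose to 4.26 and the adhesion molecule Cd2 to 3.83, while Ly6d fell by 3.29 on the log2 scale. Cd4 was at -0.06, and Cd8a read 2.19, 1.82 and 3.55 without passing (limma adjusted p = 0.0763).

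Genes of egress, adhesion and homing rose in 15 of 23, fell in 5 and did not pass in 3, with a median of 1.97. Klf2, the factor that turns on the exit receptor of mature thymocytes, read 5.19, 4.42 and 5.91, although its 2 probes had fitted ratios of 5.15 and 0.62. The exit receptor S1pr1 read 5.44, 4.40 and 5.69. In Lig+ cells Klf2 and S1pr1 stood at 5.82 and 5.99, and the differences of -0.67 and -0.77 did not pass. Ccr7 read 4.58, 3.38 and 4.88, Ccr8 4.23, 3.82 and 4.91, and Ccr4 2.89, 2.78 and 2.92. The integrin chains Itgae and Itgb7, which pair to bind E-cadherin, read 4.55, 3.56 and 3.87, and 4.75, 4.08 and 4.90. Itga6 (-2.06) and Itgb1 (-0.84) fell, though the 3 Itga6 probes ran from -2.06 to 0.06. The chemokine receptor Cxcr3 was at -0.63, at the edge of the threshold (limma adjusted p = 0.0494, up to 0.476 when 1 array was left out, and 0.144 with the slide as a replicate block), against 3.22 in Lig+ cells. The 5 falls became 2 without Lig- replicate 1. Of 7 Gimap GTPases, which sustain mature lymphocytes, 6 rose, with a median of 2.91. Gimap4 read 5.24, 3.70 and 5.79, Gimap6 4.45, 3.73 and 4.17, and Gimap3 4.26, 3.76 and 4.75. Gimap1, at 0.29, did not pass.

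Receptors and regulators of cytokine signals moved in both directions: of 33 measured, 18 rose, 10 fell and 5 did not pass, with a median of 0.50. Il7r, the receptor chain for the survival cytokine of thymocytes, read -2.22, -2.36 and -2.68 (fitted -2.38 ± 0.15, limma adjusted p = 9.44e-05). In Lig+ cells it was at 0.20, and the difference was -2.58 ± 0.19 (limma adjusted p = 0.00117). Socs2 and Cish, inhibitors induced by STAT5, read -3.33, -4.26 and -3.22, and -3.34, -3.53 and -2.07. Together with Il2ra these were the lowest of the group. The 10 falls became 6 without Lig- replicate 1. Il4ra read 2.97, 2.85 and 3.70, the shared chain Il6st 2.01, 2.01 and 1.97, and Tgfbr2 2.02, 1.92 and 1.87, where the 3 Tgfbr2 probes ran from -0.036 to 1.96. Stat4 (1.67), Stat6 (0.84) and Jak1 (1.43) rose. Costimulatory and inhibitory receptors rose in 10 of 24 genes, fell in 5 and did not pass in 9, with a median of 0.50. Cd226 read 4.35, 3.28 and 4.27, and the inhibitory receptor Pdcd1 (PD-1) 3.98, 3.28 and 4.61. Cd200 fell to -2.93 and Cd244a to -2.32, and 2 of the 5 falls held without Lig- replicate 1. Ctla4 read -4.27, -4.54 and -1.11 and lost its call without Lig- replicate 1 or 2 (limma adjusted p = 0.197 and 0.0538). NF-kappaB subunits and targets rose in 10 of 16 genes and fell in 2, with a median of 0.70. The inhibitors that NF-kappaB induces, Nfkbia and Nfkbiz, read 1.54, 1.63 and 1.99, and 1.67, 1.73 and 1.72. Bcl3 read 1.94, 1.95 and 2.17, and the subunit Relb 2.04, 1.66 and 2.01. The 2 falls in this group, Nfkb2 and Nfkbie, did not pass in any fit that left out 1 Lig- array.

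**Figure D4:**
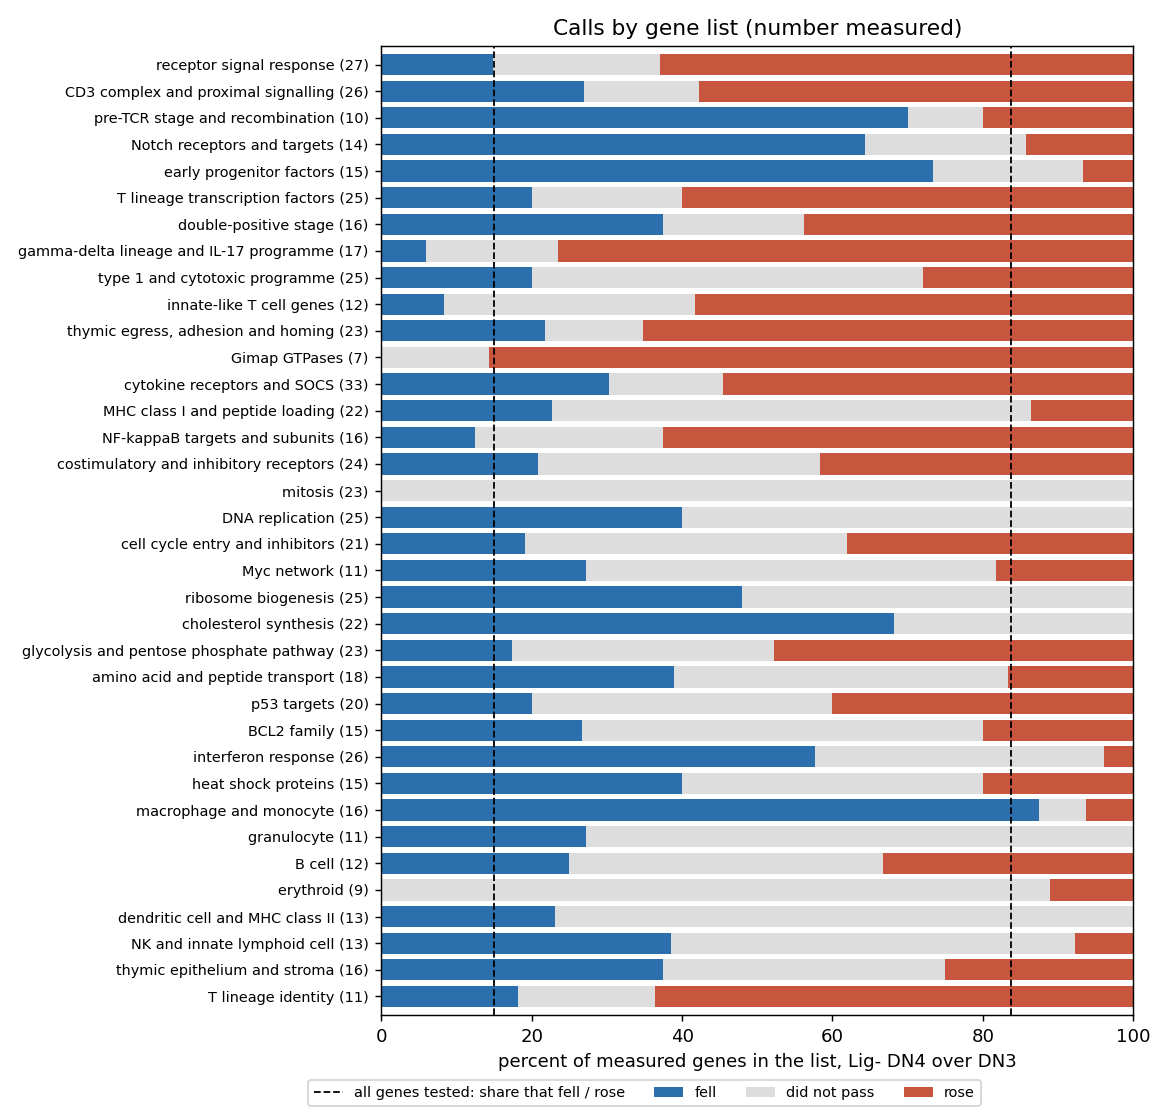
Share of the measured genes in each list that rose, fell or did not pass in Lig- DN4 over DN3 cells, with the number measured in brackets; dashed lines mark the share of all genes that fell (left) and rose (right). The gamma-delta, Gimap and egress lists hold the largest shares of rises among pathway lists, and the cholesterol, Notch, progenitor and interferon lists are mostly falls.

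Mitotic genes differed among the Lig- arrays. None of 23 mitotic genes passed, with limma adjusted p values from 0.153 to 0.991 and 0 genes at an unadjusted p under 0.05. Mki67, a marker of cycling cells, read -0.26, 0.23 and 1.45, and Top2a -0.30, 0.08 and 1.31. All 23 genes were highest in replicate 3, between 0.44 and 1.54. Without replicate 3 the median of the group was -0.27, and still none passed. In Lig+ cells 16 of the 23 rose, against 4108 of all 23602 genes tested. None of the 23 passed the direct test of Lig- against Lig+ cells. DNA replication genes fell in 10 of 25 and rose in none, with a median of -0.46, and their median on replicate 3 was 0.05. The count of falls was 2 without Lig- replicate 1, 6 without replicate 2 and 15 without replicate 3. Mcm6, a subunit of the replicative helicase, read -0.88, -1.23 and -0.83, and its partner Gins2 -1.03, -0.96 and -0.76. On both genes replicate 3 was nearest to 0 but below it. Among genes of cycle entry and its inhibitors 8 of 21 rose, 4 fell and 9 did not pass, with a median of 0.11. The counts became 4 and 2 without Lig- replicate 1. The inhibitor Cdkn1a (p21) read -3.16, -3.99 and -4.27 (fitted -3.64 ± 0.11, limma adjusted p = 1.38e-05), and the cyclin Ccnd2 -1.53, -1.95 and -1.75. Other brakes rose: Cdkn1b (p27) by 1.14, Cdkn1c (p57) by 1.74, Rb1 by 1.64 and Rbl2 by 2.05. Their values were alike on all 3 arrays, with Rbl2 at 2.17, 2.05 and 1.90. Without Lig- replicate 1 the limma adjusted p of Cdkn1b was 0.0522. Cdkn1c and Rbl2 were also above Lig+ cells, and the difference in Ccnd2 was -1.92.

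Of 25 ribosome biogenesis genes 12 fell and none rose, with a median of -0.33. The 12 falls became 5 without Lig- replicate 1, 7 without replicate 2 and 10 without replicate 3. Wdr12 read -1.01, -0.77 and -1.04, and Gnl3 -0.91, -0.73 and -0.90. In the Myc network 2 of 11 rose and 3 fell, with Myc at -1.06. Without Lig- replicate 1, 2 or 3 the rises became 0, 1 and 0 and the falls 1, 1 and 2, and Myc passed in none of these fits (limma adjusted p up to 0.391). The glycolysis and pentose phosphate group rose in 11 of 23 and fell in 4, with a median of 0.31. Apart from Tktl1, the glucose transporter Slc2a3 moved most, at 2.16, 1.72 and 1.86, with fitted ratios from 0.021 to 2.00 on its 3 probes, while Ldhb fell by 1.46 and Tkt by 0.88 on the log2 scale. Amino acid and peptide transporters fell in 7 of 18 and rose in 3, with a median of -0.16. Over all genes tested 16.3% rose and 15% fell, so the rises here and in the Myc network were near that share. Slc15a4 read -1.91, -1.98 and -1.29. These counts depended on single arrays: without Lig- replicate 1, 5 genes of the glycolysis group rose and 4 of the transporters fell, and without replicate 2 or 3 it was 7 and 6.

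Cholesterol synthesis was lower along the pathway. Of 22 measured genes 15 fell, none rose and 7 did not pass, with a median of -0.87. Idi1, which isomerises the isoprenoid building block, read -2.10, -1.98 and -1.65 (fitted -1.96 ± 0.16, limma adjusted p = 0.000245). Sqle, squalene epoxidase, read -1.88, -1.95 and -1.54, and Dhcr7, of the last step, -1.71, -1.70 and -1.92. Cyp51, the lanosterol demethylase, read -1.83, -1.78 and -1.39, against a fitted ratio of -0.12 in Lig+ cells. The 3 arrays lay close together for Idi1, Sqle, Dhcr7 and Cyp51. Srebf2, which encodes the factor SREBP-2 that drives the pathway, was at -0.56 and lost its call without Lig- replicate 1 or 2 (limma adjusted p = 0.212 and 0.0597), and Insig1, which holds SREBP-2 back, was at 0.14. In the direct test 7 of the 22 genes were lower in Lig- than in Lig+ cells, against 4.8% of all genes tested. Among the 7 were Cyp51, Idi1 and Hmgcs1. These 3 differences, -1.59, -0.99 and -0.94, were fragile. Idi1 and Hmgcs1 did not pass without any 1 Lig- array or without Lig+ replicate 1 (for Hmgcs1 also 2 or 3), nor Cyp51 when replicate 1 or 2 of Lig-, or 1 of Lig+, was left out (limma adjusted p up to 0.127, 0.177 and 0.0894). Against DN3, Hmgcs1, an early enzyme of the pathway, lay between -1.07 and -0.97 on the 3 arrays (fitted -1.01 ± 0.17, limma adjusted p = 0.00592), and its call was lost without Lig- replicate 1 (limma adjusted p = 0.101). The 15 falls became 8 without Lig- replicate 1 and 12 without replicate 2 or 3.

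Promoters of this pathway are known to bind SREBP-2 together with NF-Y, a factor that recognises CCAAT. The 250 bases before the start of 3 of the genes that fell, Hmgcs1 with the limit just given, are shown because their promoters share that motif. They are from RefSeq (GRCm38.p6), 5′ to 3′ on the strand of the gene, with CCAAT on either strand in capitals. Hmgcs1 lies at chr13:119690101-119690350 on the plus strand, Idi1 at chr13:8885356-8885605 on the plus strand and Cyp51 at chr5:4104698-4104947 on the minus strand.
Hmgcs1: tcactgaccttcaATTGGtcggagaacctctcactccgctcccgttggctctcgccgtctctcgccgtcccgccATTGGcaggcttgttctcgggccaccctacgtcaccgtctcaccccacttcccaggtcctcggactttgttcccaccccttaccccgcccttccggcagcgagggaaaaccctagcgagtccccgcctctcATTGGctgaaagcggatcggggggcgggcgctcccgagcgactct
Idi1: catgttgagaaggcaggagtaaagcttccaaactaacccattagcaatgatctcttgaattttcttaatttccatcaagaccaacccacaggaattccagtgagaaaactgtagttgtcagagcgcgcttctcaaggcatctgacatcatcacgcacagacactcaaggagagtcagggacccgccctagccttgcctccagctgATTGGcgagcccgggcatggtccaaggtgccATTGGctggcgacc
Cyp51: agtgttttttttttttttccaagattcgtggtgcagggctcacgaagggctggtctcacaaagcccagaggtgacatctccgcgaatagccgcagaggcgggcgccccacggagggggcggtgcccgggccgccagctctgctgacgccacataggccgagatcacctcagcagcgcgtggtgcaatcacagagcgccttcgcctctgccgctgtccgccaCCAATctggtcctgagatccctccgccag
These windows hold 3, 2 and 1 matches. CCAAT was searched on both strands, and it was found in all 16 genes of the list that the promoter table holds, 11 that fell and 5 that did not pass. Of all 27025 genes with a promoter there, 37.5% have it in the same window. The motif was chosen after the expression values had been seen, it is as frequent in the genes that did not pass, and a match describes letters and not binding. CACCCCAC, a sterol response element form, was found in 1 of the 16, Hmgcs1, and in 2.98% of all.

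Interferon response genes fell in 15 of 26, rose in 1 and did not pass in 10, with a median of -0.56. The falls were larger on replicates 1 and 2 than on replicate 3, where the median was -0.12. Gbp2, a guanylate-binding protein, was alike on all arrays, at -1.24, -1.21 and -1.25 (fitted -1.23 ± 0.06, limma adjusted p = 4.97e-05). Ifih1, a sensor of viral RNA, read -2.38, -2.32 and -1.45, and Mx2 -1.41, -1.38 and -0.69, with a limma adjusted p of 0.056 without Lig- replicate 1. Oas2 read -1.81, -1.72 and -0.05 and lost its call without Lig- replicate 1 or 2 (limma adjusted p = 0.31 and 0.0781) and with the slide as a replicate block (limma adjusted p = 0.053). Usp18 was the 1 gene that rose, by 1.12 ± 0.18. Without Lig- replicate 1, 2 of the 26 genes fell, without replicate 2 it was 11, and without replicate 3 it was 17. In the direct test 11 were lower in Lig- than in Lig+ cells and none was higher, against 4.8% and 6.97% of all genes tested. Heat shock genes fell in 6 of 15 (1 without Lig- replicate 1) and rose in 3, with a median of -0.53; the constitutive chaperone Hspa8 read -0.68, -1.81 and -1.35. Targets of p53 rose in 8 of 20 and fell in 4 (1 without Lig- replicate 1), with a median of 0.12. Apart from Cdkn1a, which fell, Plk2 read 3.80, 3.79 and 2.87 and Zmat3 2.40, 2.48 and 2.02. Of 15 genes of the BCL2 family 3 rose and 4 fell (1 without Lig- replicate 1), with a median of 0.06. The shares over all genes tested were 16.3% for rises and 15% for falls. Bbc3 (Puma), which promotes cell death, read 1.83, 1.91 and 1.58. Bmf, another such gene, was at -0.76, a call lost without Lig- replicate 1 or 2, and stood at -3.98 in Lig+ cells; the difference of 3.22 passed (limma adjusted p = 0.00117).

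**Figure D5:**
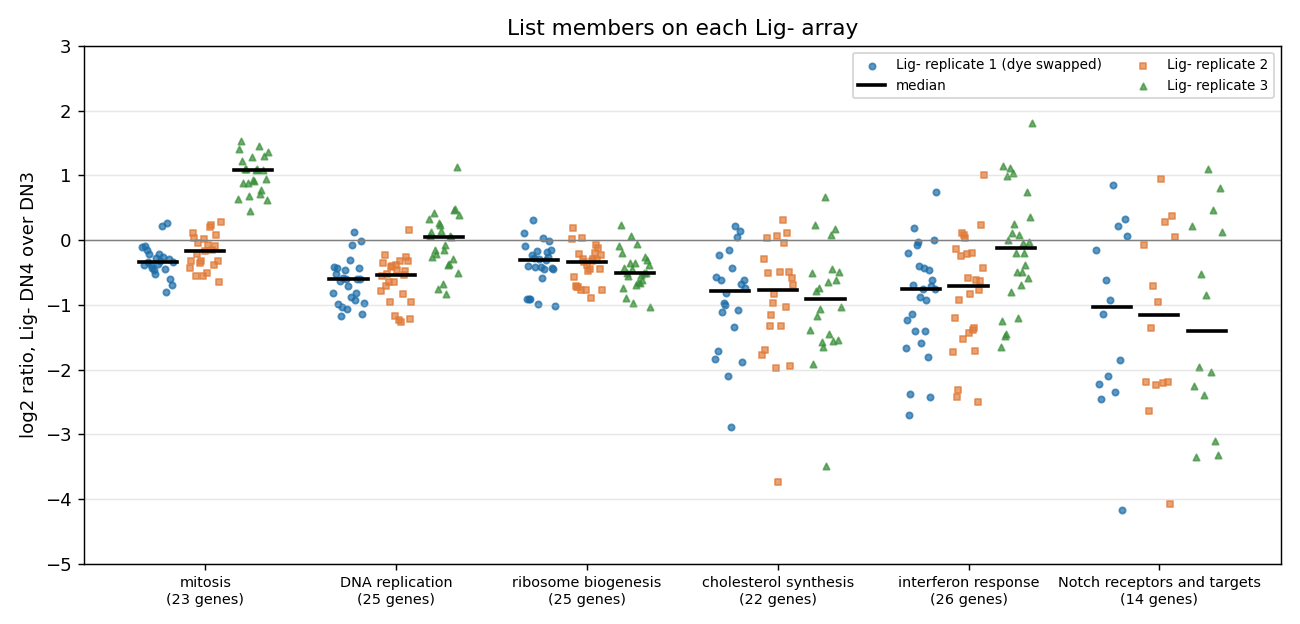
Log2 ratios of DN4 over DN3 for the members of 6 lists on each Lig- array; each symbol is a gene and the black line the median of the array. The mitotic medians are -0.34, -0.17 and 1.08, whereas the cholesterol medians are -0.78, -0.77 and -0.91.

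Markers of other cells were measured beside these results. Of the 11 T lineage identity genes 7 rose and 2 fell, with a median of 1.38. Of 16 macrophage genes 14 fell and 1 rose, with a median of -1.30 and array medians from -1.29 to -1.18. Lyz2 read -2.58, -3.08 and -3.47, and the complement genes C1qa, C1qb and C1qc had fitted ratios of -1.97, -1.76 and -1.81, where C1qa and C1qc did not pass without Lig- replicate 1 (limma adjusted p = 0.0629 and 0.0761). Without Lig- replicate 1, 4 of the 16 genes fell, Lyz2 among them, and without replicate 3 it was 9. The rise was of Ctss, cathepsin S (2.27). In bulk RNA, fewer cells of a type and less RNA per cell cannot be told apart. Among dendritic cell and MHC class II genes 3 of 13 fell and none rose: H2-Ab1 read -1.54, -2.08 and -2.76 and H2-Aa -1.76, -1.89 and -2.18, and Bst2 was at -1.62. Of these 3, 1 fell without Lig- replicate 1, H2-Ab1. The part of macrophage RNA in the falls of interferon, class I and class II genes was not tested. Of 11 granulocyte genes 3 fell, of 12 B cell genes 4 rose and 3 fell, and of 9 erythroid genes 1, Tfrc, rose. Among all genes tested 16.3% rose and 15% fell. The B cell gene Cd72 rose by 2.13, while Pax5 did not pass. Of 13 NK and innate lymphoid genes 1 rose and 5 fell, among them Il7r. Of 16 thymic epithelial and stromal genes 4 rose and 6 fell, with Epcam at -2.45, Cldn4 at -2.94 and Aire at -1.69. Without Lig- replicate 1, no granulocyte gene fell, 2 B cell genes rose and none fell, 1 NK gene fell and none rose, and 1 stromal gene rose and 3 fell. Without replicate 2, 2 B cell genes rose, 2 NK genes fell and 1 stromal gene rose; without replicate 3, 6 B cell genes rose and 1 fell, 3 NK genes fell and 2 stromal genes rose. The array medians of the granulocyte, B cell, NK and stromal lists lay between -0.58 and 0.17. None of the 4 Y-linked genes nor Xist passed, and Xist read 1.21, 1.37 and 0.82.

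Set directly against Lig+ cells, 2778 genes differed (11.8% of those tested): 1644 were higher in Lig- cells (6.97%) and 1134 were lower (4.8%). With the slide as a replicate block the count was 5851, which held all 2778. Among the called genes 2685 had no overlap between the 3 Lig- and the 4 Lig+ arrays. That count uses the same values as the test, and the share without overlap over all genes was not counted. The count fell to 855 without Lig- replicate 1 or without Lig+ replicate 1, the dye-swapped arrays. Both of these fits rest on the same unswapped arrays and count as 1 check. The count was 1159 without Lig- replicate 2, 1743 without Lig+ replicate 3 and 1850 without Lig- replicate 3. The largest differences with Lig- higher came in several forms. In the first, the gene rose in Lig- cells and stayed near DN3 in Lig+ cells: Ankrd6 (4.22, 4.04 and 3.95 against -0.03), Sdc4, a syndecan (3.72, 3.19 and 4.49 against -0.01), Tdrkh (3.40, 3.17 and 3.40 against -0.60) and Hdac9 (2.82, 3.10 and 3.58 against -0.70). The 3 Hdac9 probes had fitted ratios from 0.39 to 3.04, and on the brightest of those well above background on every array neither the ratio to DN3 nor the difference of 0.39 passed (limma adjusted p = 0.0817 and 0.229). Iqch, given above, rose in both, to 5.65 and 1.73. In the second, the gene stayed near DN3 in Lig- cells and was far below it in Lig+ cells. Nebl read -0.11, 0.19 and -0.54 against -4.23, Prodh 0.00, 0.32 and -1.10 against -4.20, and Osbpl1a -0.17, 0.03 and -0.81 against -4.13. The 3 Osbpl1a probes had fitted ratios in Lig- cells from -1.17 to -0.14. With the mean over probes Osbpl1a passed as below DN3 in Lig- cells. Tctex1d1 was at -0.77 against -4.40, and its call against DN3 was lost without Lig- replicate 1 or 3 (limma adjusted p = 0.406 and 0.123) and with the slide as a replicate block (limma adjusted p = 0.0959). Esm1 (2.53 against -1.97) and Il17re rose in Lig- cells and were below DN3 in Lig+ cells, and both calls of Esm1, against DN3 and against Lig+ cells, were lost without any 1 Lig- array or without Lig+ replicate 1 (limma adjusted p up to 0.211 and 0.106).

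The largest differences with Lig- lower were mostly of genes that rose in Lig+ cells and did not rise in Lig- cells. Klrd1, an NK receptor chain (CD94), read -0.56, -0.37 and 0.28 against 4.53. Crtam, a receptor of activated cytotoxic cells, read 0.13, 0.02 and 0.14 against 4.30. Tnfrsf9 (4-1BB) read -0.60, -0.78 and -0.80 against 3.16. None of these 3 passed against DN3, and all Lig- arrays were near it or below. The chemokine Xcl1 read -1.42, -1.54 and -0.78 against 3.76, and Endod1 -2.15, -1.95 and -1.12 against 2.05. Against DN3, Xcl1 did not pass without any 1 Lig- array or Lig+ replicate 1 (limma adjusted p up to 0.292) and Endod1 not without replicate 1 (limma adjusted p = 0.0708). Dapl1 read -1.38, -1.62 and 1.52, so replicate 3 lay apart from the others, against 3.75 in Lig+ cells, and its difference from Lig+ cells did not pass when replicate 1 or 2 of Lig-, or 1, 3 or 4 of Lig+, was left out (limma adjusted p up to 0.138). A further 4 genes were lower in Lig- cells than in DN3 cells while Lig+ cells were not. They were B2m, Pdxdc1 (-3.33, -4.29 and -5.71 against 0.33), H2-Ea, a class II chain (-3.73, -4.44 and -3.81 against 0.12), and Aim2, a DNA sensor (-2.77, -3.33 and -1.99 against 1.74). The 2 probes of Pdxdc1 had fitted ratios of -4.25 and -0.42. H2-Ea was well above background in the DN4 channel on 2 of 3 Lig- arrays and Aim2 on 1 of 3.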

How the data were processed

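The intensities are the scanner signals of Agilent Feature Extraction files that the authors deposited, 1 file per 2-colour array. The deposited table of log10 ratios equals the files' own ratio of red over green to within 4.87e-08 and served to settle scale and direction. Per the file headers, the arrays of the first scan day (slides 1, 2) were read with version 9.5.1.1 and those of the other (slides 3, 4) with 9.5.3.1. The build behind the array's annotation is not given in the sources used here.

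Mean signals were corrected with limma 3.58.1 (normexp, offset 50) and loess in each array, with control spots at weight 0. Outlier spots were left out, which removed between 0.286% and 0.401% of spots. A probe was kept where 3 or more arrays had it well above background in the DN4 or DN3 channel, and the brightest stood for its gene. The model held Lig+, Lig- and dye over 7 arrays (R 4.3.3). Of 41174 probes, 22951 were named through RefSeq accessions, 6659 and 3109 through current and older symbols, and 8455 by the file's name. The code was tested on simulated data.

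The members and gene lists were chosen with earlier results of these data known. Genes named beyond the lists are the 15 largest rises and falls with 1 sign on all 3 Lig- arrays, and the 12 largest differences each way between Lig- and Lig+ cells without overlap between groups. Within a list, the members described were chosen after their values were seen. A few genes of the lists and of the named genes are not reported here; counts and medians include them.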

Additional observations from a re-analysis of the deposited data

Results flagged for a closer look

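The 23 genes named for the largest differences between Lig- and Lig+ cells each had a difference that passed limma's test of Lig- against Lig+ directly. Higher in Lig- cells were Il17re (by 4.57), Esm1 (4.50), Nebl (4.20), Ankrd6 (4.14), Prodh (4.10), Iqch (3.92), Tdrkh (3.91), Osbpl1a (3.84), Sdc4 (3.75), Hdac9 (3.73) and Tctex1d1 (3.64). Lower in Lig- cells were Egr3 (-5.89), B2m (-5.14), Xcl1 (-5.02), Klrd1 (-4.82), Egr2 (-4.70), Pdxdc1 (-4.58), Aim2 (-4.46), Dapl1 (-4.36), Crtam (-4.28), H2-Ea (-4.12), Tnfrsf9 (-3.95) and Endod1 (-3.93). The values are differences of log2 ratios, Lig- minus Lig+. Because the genes were named for their size, the differences are larger than those of the other genes by choice.

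Among the 4 Lig+ arrays, the lowest Esm1 value, -4.59, lay far from the others by Dixon's criterion for 4 samples. It was the only one of the 23 genes with such an array, and chance gives such a value in about 1 in 20 groups.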

How the results depend on the processing

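The number of genes called in Lig- DN4 against DN3 cells, 7381, ran from 2732 to 8103 when 1 of the 7 arrays was left out. It was 14255 on scan day 1 alone and 4891 with the Lig- arrays fitted alone, of which 4682 were among the 7381. Between Lig- and Lig+ cells, 2778 genes were called, and 855 to 3545 when 1 array was left out. That count was 1628 with median centring in place of loess, 4742 with scan day as a random block, 5515 with a fixed term for scan day, and 9774 on scan day 1 alone. Replicate numbers are in accession order and pair nothing by themselves, but the file headers place replicates 1, 2 and 3 of both groups on shared slides. With the slide as a replicate block, 6768 genes were called against DN3 and 5851 between the groups, at a consensus correlation of 0.591. The differences between slides 2 and 3 correlated between Lig- and Lig+ cells at r = 0.563 over 23541 genes. The other settings, among them Agilent's own log ratios, no background correction, no dye term, no filter and the mean over probes, stayed within 1.5 times. Reversals were few: the median of DNA replication genes was 0.053 on scan day 2 alone, Dapl1 against DN3 was 1.52 there, and Egr3 was -0.078 where probes had to be well above background on all 7 arrays, which takes another probe. The Tcrg probe with a dye term of 1.57 was at -0.13 on scan day 1 alone and -1.23 on scan day 2 alone. The cause of these changes was not tested. Counts of list members without 1 Lig- array, under median centring and with Agilent's log ratios were chosen after seeing the data. Faint probes and 3 arrays limit the precision, and falls of DN4 signal towards background are understated by the offset.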
